A study of Mus musculus with 18 samples.

Results

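Markers of astroglia and of Bergmann glia were followed through the arrays of a study on DOT1L, the histone H3K79 methyltransferase, in the mouse cerebellum. The 10 genes, *Gfap*, *Slc1a3*, *Slc1a2*, *Aqp4*, *Aldh1l1*, *Fabp7*, *Hopx*, *Gdf10*, *Sox9* and *S100b*, were chosen by name, and each was read from its transcript cluster on Affymetrix Mouse Gene 2.0 ST arrays. All 10 were measured, among 22180 genes with a cluster of their own. Values are log2 signals, on which a difference of 1 is a doubling. Signals of different genes on an array were not set against each other, since probes differ in brightness.

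Bergmann glia are radial astroglia whose fibres span the molecular layer, guide migrating granule cells and wrap the synapses of Purkinje cells. Together with the astrocytes of the granule layer and white matter they clear glutamate, buffer potassium and move water, and they descend from the ventricular zone and not from the *Atoh1*-expressing rhombic lip that gives rise to granule cells. Cultures enriched for granule cells usually carry a minority of such glia.

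Cerebella were taken at P3 from C57BL6/J mice. In 3 *Dot1l*-cKO mice (*Dot1l* f/f, *Atoh1* cre/+) the Cre is driven from the *Atoh1* locus, so that the deletion is directed to the granule lineage. The 3 control mice carried floxed *Dot1l* with *Atoh1* +/+, and for control replicate 3 the labels name both f/f and f/+. Cultures came from wild-type NMRI mice. Granule cell progenitors (CGNP) of P7 mice were kept with SHH for 1 day in vitro and received SGC0946, an inhibitor of DOT1L, or its solvent DMSO for 4 h, in 3 cultures per treatment. Those cultures were made from 2 mice, 1 from each and 1 from both pooled, and the same mice served both treatments. Granule neurons (CGN) were kept with FBS and treated for 44 h, in 2 cultures per treatment. The dose was 5 µM by the methods and is written as 5 mM in the labels. For CGN with DMSO the labels give 2 and 4 days in vitro at P7, and for CGN with SGC0946 5 days at P7 and 7 days at P9, so that labelled days and treatment cannot be told apart. The methods describe 1 schedule for all CGN. A further 2 CGN arrays name opposite treatments in title and description and entered no comparison.

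Array medians lay at 4.98 to 5.00 in cerebella, 4.73 to 4.80 in CGNP and 4.64 to 4.70 in CGN, so the experiments appear to have been normalized apart. Replicates of a group correlated at 0.984 to 0.993 across genes. The mean signal over 15 genes of proliferating granule progenitors was 9.98 to 10.04 in control and 9.60 to 9.82 in *Dot1l*-cKO cerebella, 8.22 to 8.42 in CGNP and 7.15 to 7.22 in CGN. *Atoh1*, which marks granule progenitors, read 7.94 to 9.18 in cerebella, 5.02 to 5.60 in CGNP and 4.61 to 4.92 in CGN, the last near the median of those arrays. *Dot1l* itself read 9.24, 9.43 and 9.01 in *Dot1l*-cKO mice against 9.05, 9.13 and 9.05 in the controls. It differed by 0.15 on the log2 scale (standard error 0.13) between *Dot1l*-cKO and control cerebella, by -0.03 (standard error 0.12) in CGNP and by -0.47 (standard error 0.15) in CGN. Whether its probes lie in the deleted exon was not examined and whole cerebella hold many cells outside the *Atoh1* lineage, so this signal checks neither the deletion nor the labels.

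*Slc1a2* encodes GLT-1, one of the glutamate transporters of astroglia, and was the member with the clearest difference between treatments. *Slc1a3* encodes GLAST, its relative that dominates in Bergmann glia. *Gdf10* encodes a secreted factor of the BMP family that marks Bergmann glia in mice, and was far lower in CGN than in CGNP, where its CGN signals lay below the median of the arrays. Their promoters from RefSeq (GRCm38.p6, 250 bases before to 50 after the start) are shown with each CG dinucleotide in capitals. Of the 10 members 8 had a promoter read, those of *Sox9* and *Aqp4* were not used, and no data on chromatin or methylation were analysed here.
Slc1a2: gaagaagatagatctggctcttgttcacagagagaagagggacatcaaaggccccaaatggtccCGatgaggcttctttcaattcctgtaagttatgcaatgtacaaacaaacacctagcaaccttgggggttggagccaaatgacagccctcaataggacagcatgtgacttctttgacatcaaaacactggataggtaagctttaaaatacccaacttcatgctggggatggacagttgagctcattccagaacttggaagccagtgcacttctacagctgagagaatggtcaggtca
Slc1a3: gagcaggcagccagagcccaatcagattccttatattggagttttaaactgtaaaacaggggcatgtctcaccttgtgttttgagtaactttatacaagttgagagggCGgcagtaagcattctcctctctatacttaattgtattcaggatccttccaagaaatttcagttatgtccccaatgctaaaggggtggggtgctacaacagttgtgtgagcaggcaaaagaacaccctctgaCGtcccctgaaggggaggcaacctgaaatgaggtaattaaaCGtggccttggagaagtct
Gdf10: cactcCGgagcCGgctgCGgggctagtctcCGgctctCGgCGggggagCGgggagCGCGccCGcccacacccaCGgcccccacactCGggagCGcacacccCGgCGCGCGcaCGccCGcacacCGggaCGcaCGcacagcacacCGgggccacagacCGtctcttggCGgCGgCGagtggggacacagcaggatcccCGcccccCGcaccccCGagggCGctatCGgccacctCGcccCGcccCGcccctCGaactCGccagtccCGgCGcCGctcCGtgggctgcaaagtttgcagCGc
The *Slc1a2* promoter (chr2:102706188-102706487, plus strand) held 1 CG, and 5.43% of 32851 promoters of this length held fewer. That of *Slc1a3* (chr15:8710758-8711057, minus strand) held 3, with fewer in 23.3% of promoters. The *Gdf10* promoter (chr14:33923337-33923636, plus strand) held 42, more than 97% of promoters, and was 77.3% G or C. The windows shown for both transporter genes were thus poor in CG and that for *Gdf10* was rich in it, which is a description of the sequences alone. Each window belongs to a single RefSeq start, and other starts of these genes were not examined.

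**Figure D1:**
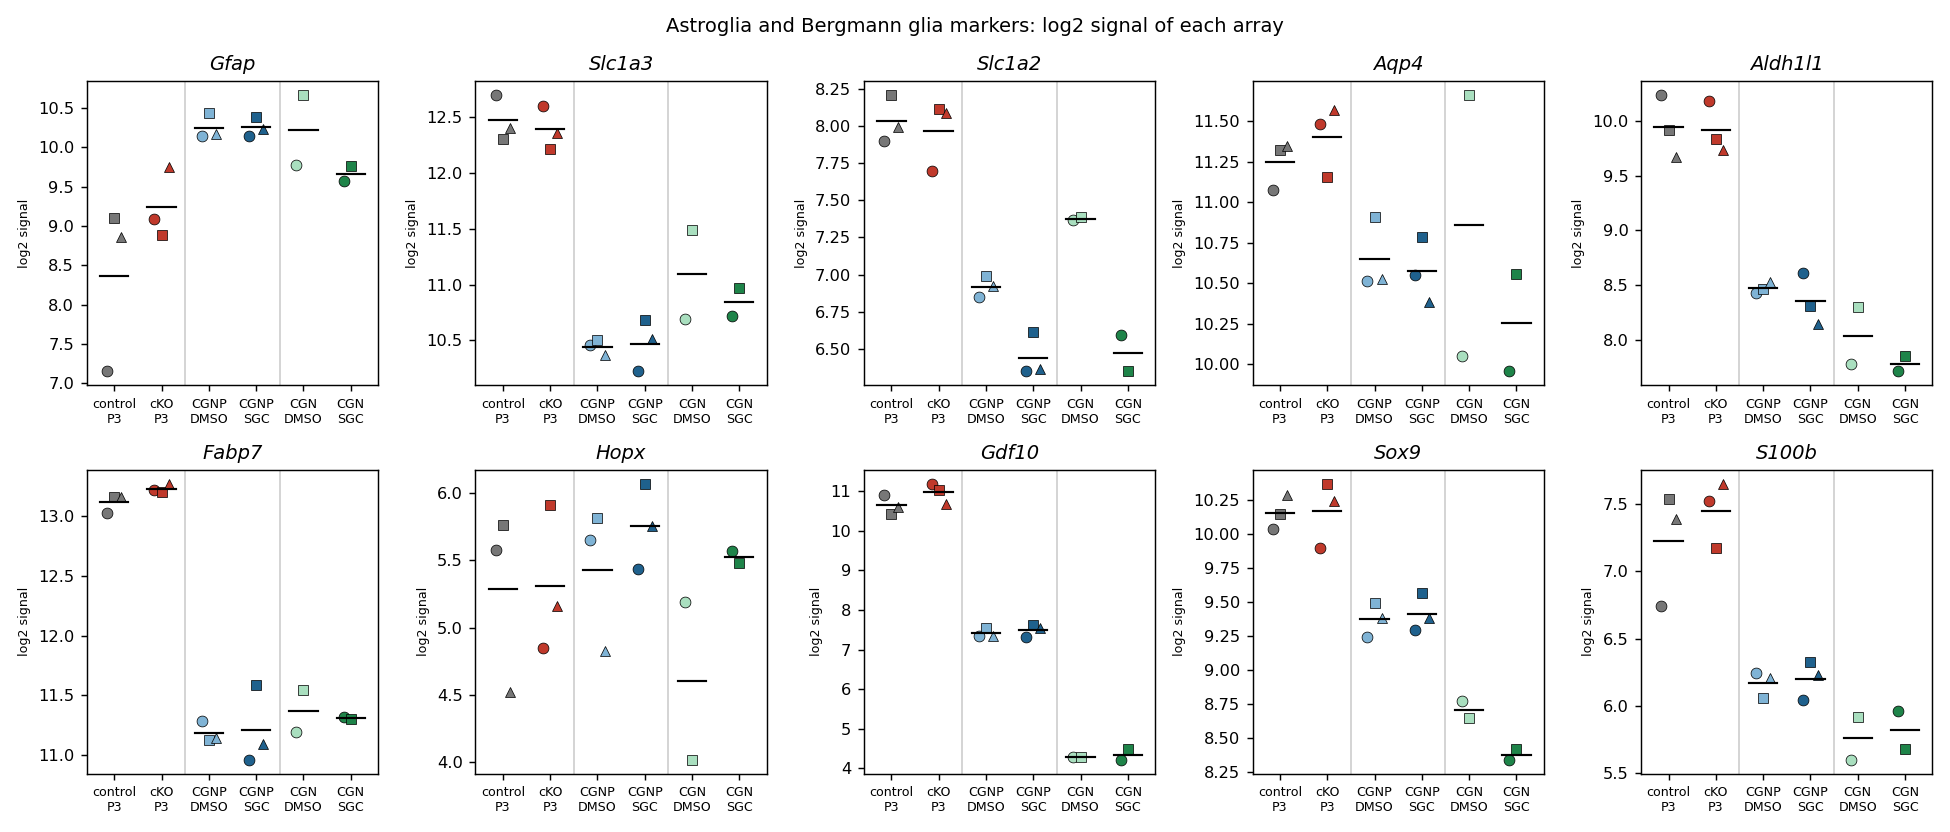
Log2 signal (y axis) of each marker on each array by group (x axis), with a bar at the group mean; circles, squares and triangles are replicates 1, 2 and 3, and the y axes differ between genes. *Slc1a2* is lower with SGC0946 than with DMSO in CGNP (6.35 to 6.61 against 6.85 to 6.99) and in CGN (6.35 and 6.60 against 7.36 and 7.39), while *Dot1l*-cKO and control cerebella overlap for every marker but *Fabp7*.

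In P3 cerebella the median change of the astroglia markers between *Dot1l*-cKO and control mice was small, but some markers had wide 95% intervals. The interval was -0.01 to 1.76 for *Gfap*, -0.70 to 0.74 for *Hopx* and -0.26 to 0.71 for *S100b*, so sizeable differences in these were not excluded. None of the 10 passed limma's test at an adjusted p of 0.05 over all genes, which 5 of 22180 genes passed (0.0225%). At the unadjusted cut-off of 0.05 used in the study stood 1 member, *Gdf10*, higher in *Dot1l*-cKO, against 8.69% of all genes in either direction and 4.09% higher. The mean was higher in *Dot1l*-cKO for 7 of 10 members, against 47.9% of all genes, with a median log2 change of 0.07 (all genes -0.01). The groups did not overlap for 1 member, *Fabp7*, against 14% of all genes. In whole tissue, fewer cells of a type and less RNA per cell cannot be told apart.

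Among regulators and early glial genes, *Sox9*, a transcription factor of glial specification, read 9.90, 10.37 and 10.24 in *Dot1l*-cKO mice against 10.04, 10.15 and 10.29 in the controls. Its groups overlapped fully, with a log2 change of 0.01 (standard error 0.13). *Fabp7*, a brain fatty acid-binding protein of radial glia, read 13.21, 13.20 and 13.27 in *Dot1l*-cKO mice against 13.02, 13.16 and 13.16 in the controls. The groups did not overlap, but the difference of 0.11 (standard error 0.07, adjusted p = 0.687) was small. *Hopx*, a homeodomain protein that in mice marks Bergmann glia progenitors, read 4.85, 5.91 and 5.16 in *Dot1l*-cKO mice against 5.58, 5.76 and 4.52 in the controls. It spread over more than 1 log2 unit within either group, so a log2 change of 0.02 had a 95% interval of -0.70 to 0.74.

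Of the Bergmann glia genes, *Gdf10* read 11.19, 11.03 and 10.68 in *Dot1l*-cKO mice against 10.90, 10.42 and 10.60 in the controls. The lowest *Dot1l*-cKO signal lay within the control range, and the log2 change was 0.32 (standard error 0.15, unadjusted p = 0.0476, adjusted p = 0.569). Leaving out each mouse in turn gave 0.21 to 0.47, and the unadjusted cut-off was kept only without *Dot1l*-cKO replicate 3 or control replicate 1. *Slc1a3* read 12.60, 12.21 and 12.36 in *Dot1l*-cKO mice against 12.70, 12.31 and 12.41 in the controls, a log2 change of -0.08 (95% interval -0.33 to 0.18). *Slc1a2* read 7.70, 8.11 and 8.09 in *Dot1l*-cKO mice against 7.90, 8.21 and 7.996 in the controls, a log2 change of -0.07 (95% interval -0.42 to 0.28). Both glutamate transporters thus overlapped between genotypes.

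Among the genes of more mature astrocytes, *Gfap*, the intermediate filament protein, varied most between mice. It read 9.09, 8.89 and 9.75 in *Dot1l*-cKO mice against 7.16, 9.10 and 8.86 in the controls. The log2 change of 0.87 (standard error 0.41, adjusted p = 0.580) rested largely on control replicate 1, which was lower than each of the other mice, and was 0.26 without it. It reached the unadjusted cut-off without *Dot1l*-cKO replicate 2, control replicate 2 or control replicate 3 (1.05 to 1.24). *Aqp4*, the water channel of astrocyte end feet, read 11.48, 11.16 and 11.57 in *Dot1l*-cKO mice against 11.08, 11.32 and 11.35 in the controls (log2 change 0.15, standard error 0.12), and stood at the unadjusted cut-off, with 0.28, without *Dot1l*-cKO replicate 2. *S100b*, a calcium-binding protein, read 7.52, 7.18 and 7.66 in *Dot1l*-cKO mice against 6.74, 7.54 and 7.39 in the controls (log2 change 0.23, standard error 0.22). Control replicate 1 was again the lowest for *S100b* and for *Aqp4*. *Aldh1l1*, a folate enzyme used as a general astrocyte marker, read 10.18, 9.83 and 9.74 in *Dot1l*-cKO mice against 10.24, 9.92 and 9.68 in the controls. Its group means were nearly equal (log2 change -0.03, standard error 0.16).

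Further genes of astroglia and Bergmann glia, taken from a list of 30 of which 29 were measured, mostly had higher means in *Dot1l*-cKO, 25 higher and 4 lower, with a median log2 change of 0.11. None passed the adjusted test and 4 stood at the unadjusted cut-off, all higher (13.8%, against the 4.09% of all genes). Without each mouse in turn 20 to 25 had higher means, but the median was 0.01 without *Dot1l*-cKO replicate 3, and 8 genes stood at the cut-off without *Dot1l*-cKO replicate 2. *Apoe*, a lipid carrier made by astrocytes, read 7.99, 8.80 and 8.82 in *Dot1l*-cKO mice against 7.70, 7.36 and 8.05 in the controls (log2 change 0.83, standard error 0.24, adjusted p = 0.392). *Atp1b2*, a glial subunit of the sodium pump, differed by 0.77 (standard error 0.23) and *Clu*, the secreted chaperone clusterin, by 0.65 (standard error 0.25). *Ndrg2*, a gene enriched in astrocytes, differed by 0.22 (standard error 0.10). For all 4 the groups overlapped. Of 13 glial fate regulators 6 were higher and 7 lower, and at the unadjusted cut-off stood *Nfib* (-0.33, standard error 0.09) and *Nfia* (-0.22, standard error 0.10), transcription factors that granule cells express as well. Of 14 genes of reactive astroglia 8 were higher, none at the unadjusted cut-off. The largest difference among them was that of *Serpina3n*, a serine protease inhibitor of reactive astrocytes, with 0.61 (standard error 0.29).

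Genes of other cells differed at the same time in the cerebella. Of 15 genes of proliferating granule progenitors 14 were lower in *Dot1l*-cKO (median log2 change -0.35), 8 of them at the unadjusted cut-off, against 4.6% of all genes. Markers of microglia and macrophages were higher for 11 of 12 genes (median 0.37), with a mean signal of 6.89 to 7.18 in *Dot1l*-cKO and 6.65 to 6.87 in control cerebella. All 8 markers of GABAergic interneurons (median 0.35) and 10 of 11 of the oligodendrocyte lineage (median 0.24) had higher means, against 47.9% of all genes. So had 12 of 12 of pericytes and meningeal fibroblasts (median 0.21). Without each mouse in turn 9 to 12 of these 12 were higher, with a median of 0.08 without *Dot1l*-cKO replicate 2. Genes of endothelium (5 of 10 higher, median 0.06) and of Purkinje cells (5 of 9 higher, median 0.04) were split. The mean over the 10 markers of astroglia was 9.77 to 9.85 in *Dot1l*-cKO and 9.54 to 9.79 in control cerebella. The part of these shifts in the differences of the markers was not tested.

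**Figure D2:**
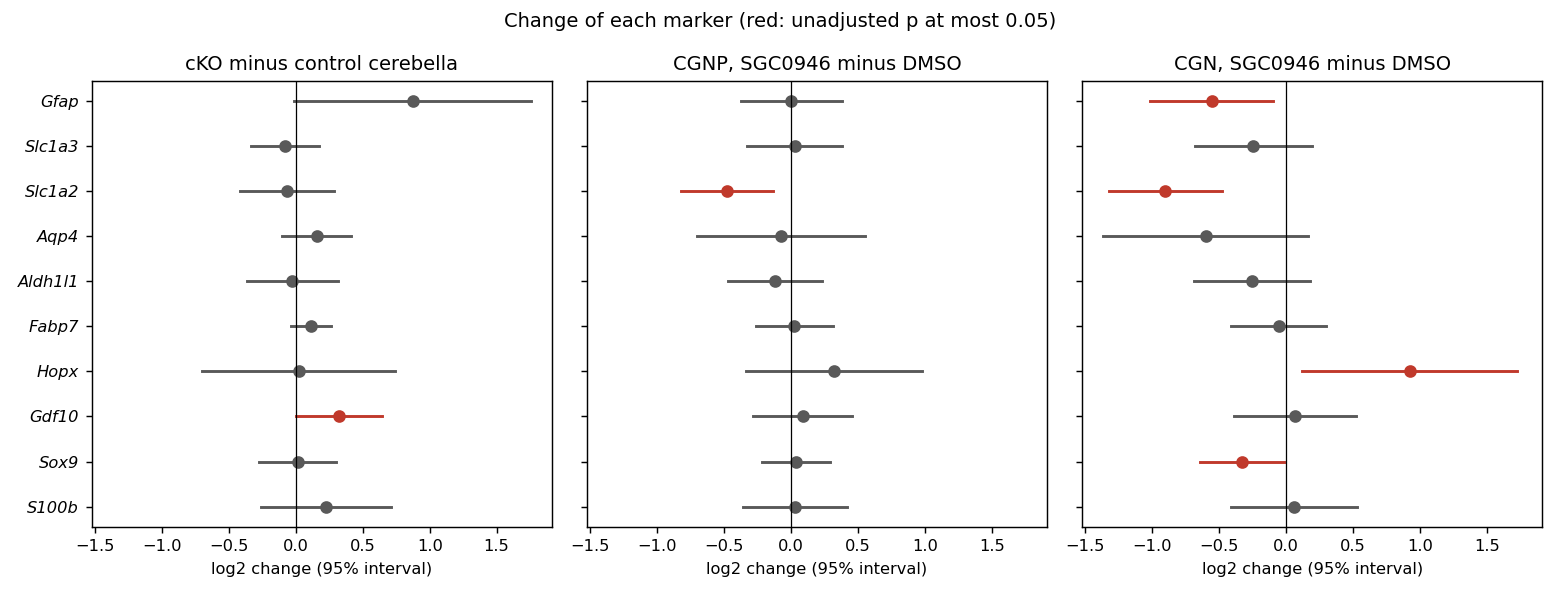
Log2 change (x axis) of each marker (y axis) with its 95% interval in *Dot1l*-cKO against control cerebella and with SGC0946 against DMSO in CGNP and CGN; red marks an unadjusted p of at most 0.05. *Slc1a2* is near 0 in cerebella (-0.07) and lower in CGNP (-0.48) and CGN (-0.90).

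In CGNP treated for 4 h, *Slc1a2* had a lower signal with SGC0946, without passing the adjusted test, and the groups of the other markers overlapped. *Slc1a2* read 6.35, 6.61 and 6.36 with SGC0946 and 6.85, 6.99 and 6.92 with DMSO. Each treated culture was below each DMSO culture. The log2 change was -0.48 (standard error 0.16, 95% interval -0.82 to -0.13, 1.39-fold lower, unadjusted p = 0.0102), and it did not pass the adjusted test (adjusted p = 1). Leaving out each culture in turn gave -0.56 to -0.43. Without the cultures pooled from both mice, which leaves 2 against 2, it was -0.47 with an unadjusted p of 0.0504.

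*Slc1a2* was the single member at the unadjusted cut-off in CGNP, where 4.08% of all genes stood in either direction and 1.83% lower, and the single one whose groups did not overlap, against 9.78% of all genes. The adjusted test was passed by 7 genes (0.0316%), none of them a member. Means were higher with SGC0946 for 7 of 10 members, against 51.3% of all genes, with a median log2 change of 0.03.

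The other transporter, *Slc1a3*, read 10.22, 10.68 and 10.51 with SGC0946 and 10.46, 10.50 and 10.37 with DMSO (log2 change 0.03, 95% interval -0.33 to 0.38). *Gfap* read 10.15, 10.39 and 10.23 with SGC0946 and 10.15, 10.44 and 10.17 with DMSO, a log2 change of 0.00 with a 95% interval of -0.37 to 0.38. *Sox9* read 9.30, 9.56 and 9.38 with SGC0946 and 9.25, 9.50 and 9.39 with DMSO (log2 change 0.04, standard error 0.12). For *Gfap* and *Sox9* the cultures of the same mice were at nearly the same level with either treatment, whereas *Slc1a3* was lower with SGC0946 in the pooled culture and higher in those of the single mice. *Aqp4* read 10.55, 10.79 and 10.38 with SGC0946 and 10.51, 10.91 and 10.52 with DMSO (log2 change -0.08, standard error 0.29). *Fabp7* read 10.96, 11.59 and 11.09 with SGC0946 and 11.29, 11.13 and 11.15 with DMSO (log2 change 0.02, standard error 0.13). The culture of mouse 29 with SGC0946, replicate 2, held the highest *Fabp7* signal of the CGNP.

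Of the remaining members *Hopx* had the widest spread, with 5.43, 6.07 and 5.75 with SGC0946 and 5.65, 5.82 and 4.82 with DMSO (log2 change 0.32, standard error 0.31). Its DMSO replicate 3 lay below the other cultures. *Gdf10* read 7.32, 7.62 and 7.55 with SGC0946 and 7.34, 7.55 and 7.34 with DMSO (log2 change 0.09, standard error 0.17). *S100b* read 6.05, 6.33 and 6.23 with SGC0946 and 6.24, 6.06 and 6.20 with DMSO (log2 change 0.03, standard error 0.18). *Aldh1l1* read 8.61, 8.31 and 8.14 with SGC0946 and 8.43, 8.46 and 8.53 with DMSO (log2 change -0.12, standard error 0.16). These 4 overlapped between treatments, with intervals that reach at least 0.23 to either side of 0.

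Other genes of astroglia stood apart as little in CGNP. Of 29 genes 18 had higher and 11 lower means with SGC0946 (median log2 change 0.07), none at the unadjusted cut-off. The largest difference among them was that of *Slc7a10*, a transporter of small neutral amino acids in astrocytes, with 0.40 (standard error 0.22, adjusted p = 1). Of 14 reactive genes *Timp1*, an inhibitor of metalloproteinases, stood at the unadjusted cut-off, higher by 0.53 (standard error 0.21), and of 13 fate regulators none did, the largest difference being that of *Hes5*, an effector of Notch signalling, with 0.41 (standard error 0.22).

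In CGN treated for 44 h, *Slc1a2* was again lower with SGC0946, and 7 of the 10 markers had lower means, against 48.7% of all genes with higher ones. *Slc1a2* read 6.60 and 6.35 with SGC0946 and 7.36 and 7.39 with DMSO. The DMSO cultures were alike and both treated cultures lay well below them. The log2 change was -0.90 (standard error 0.20, 95% interval -1.33 to -0.48, 1.87-fold lower), with an unadjusted p of 0.000435 and an adjusted p of 0.110. Leaving out each array in turn gave -1.03 to -0.78. Without the trend of variance with intensity the adjusted p was 0.0496, and across all alternatives it ranged from 0.0496 to 0.371.

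None of the members passed the adjusted test in CGN, which 34 genes passed (0.153%). At the unadjusted cut-off stood 4 members, against 7.48% of all genes, 3 of them lower (all genes 4.08%) and 1 higher (all genes 3.39%). Their groups did not overlap, which with 2 arrays against 2 held for 34.1% of all genes. The median log2 change of the members was -0.25 (all genes -0.01).

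*Gfap* read 9.57 and 9.76 with SGC0946 and 9.77 and 10.67 with DMSO. The lower DMSO culture was almost level with the higher treated one. The log2 change of -0.56 (standard error 0.21, unadjusted p = 0.0210, adjusted p = 0.548) was -0.11 without DMSO replicate 2 and -0.46 without SGC0946 replicate 1, in both cases no longer at the cut-off. *Hopx* read 5.57 and 5.48 with SGC0946 and 5.19 and 4.02 with DMSO, the last below the medians of the CGN arrays (4.64 to 4.70). Its log2 change, for that reason not a measured fold, was 0.92 (standard error 0.37, unadjusted p = 0.0276, adjusted p = 0.582). Without DMSO replicate 2 it was 0.34, and it stood at the cut-off only when DMSO replicate 1 was the array left out (1.51). *Sox9* read 8.34 and 8.42 with SGC0946 and 8.78 and 8.65 with DMSO, a log2 change of -0.33 (standard error 0.15, unadjusted p = 0.0400, adjusted p = 0.638) that was -0.40 to -0.27 when 1 array was left out, and at the cut-off only without DMSO replicate 2.

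*Aqp4* read 9.96 and 10.56 with SGC0946 and 10.05 and 11.66 with DMSO, so that its DMSO cultures lay further apart than the treatments. Its log2 change of -0.60 (standard error 0.36, adjusted p = 0.781) was 0.20 without DMSO replicate 2 and -1.41 without DMSO replicate 1, then at the unadjusted cut-off (adjusted p = 0.0565). *Slc1a3* read 10.72 and 10.97 with SGC0946 and 10.69 and 11.49 with DMSO (log2 change -0.25, standard error 0.20). *Aldh1l1* read 7.71 and 7.85 with SGC0946 and 7.77 and 8.30 with DMSO (log2 change -0.26, standard error 0.20). In both genes DMSO replicate 1 was close to the treated cultures and DMSO replicate 2 above them. Without DMSO replicate 1 both stood at the unadjusted cut-off, *Slc1a3* at -0.65 and *Aldh1l1* at -0.52, and without DMSO replicate 2 they were at 0.15 and 0.01. *Fabp7* read 11.32 and 11.30 with SGC0946 and 11.19 and 11.54 with DMSO (log2 change -0.06, standard error 0.16). *S100b* read 5.96 and 5.67 with SGC0946 and 5.60 and 5.92 with DMSO (log2 change 0.06, standard error 0.22). *Gdf10* read 4.22 and 4.48 with SGC0946 and 4.28 and 4.30 with DMSO (log2 change 0.06, standard error 0.21), all below the median signal of the CGN arrays.

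The 2 DMSO cultures of CGN thus differed from each other in the glial genes, and also in genes of some other cells. DMSO replicate 2 was higher than replicate 1 for 8 of 10 members, with a median difference of 0.34 on the log2 scale, against 52.9% of all genes with a median of 0.02. *Aqp4* differed by 1.61, *Gfap* by 0.89 and *Slc1a3* by 0.80, whereas *Slc1a2* differed by 0.03 and *Hopx* by -1.17. The same replicate was higher for 25 of 29 other genes of astroglia (median 0.57), 13 of 14 reactive genes (median 0.49) and 10 of 12 microglial genes (median 0.65). Outside the glia it was higher for 8 of 8 genes of GABAergic interneurons (median 0.51) and 7 of 9 of Purkinje cells (median 0.28). For pericytes and meningeal fibroblasts it was higher for 9 of 12 (median 0.38). It was higher for only 5 of 16 genes of granule neurons (median -0.06) and 1 of 10 of choroid plexus and ependyma (median -0.20). Without it, 7 of 10 members had higher means with SGC0946 and their median log2 change was 0.10. *Slc1a2* was as low without it, at -0.89.

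**Figure D3:**
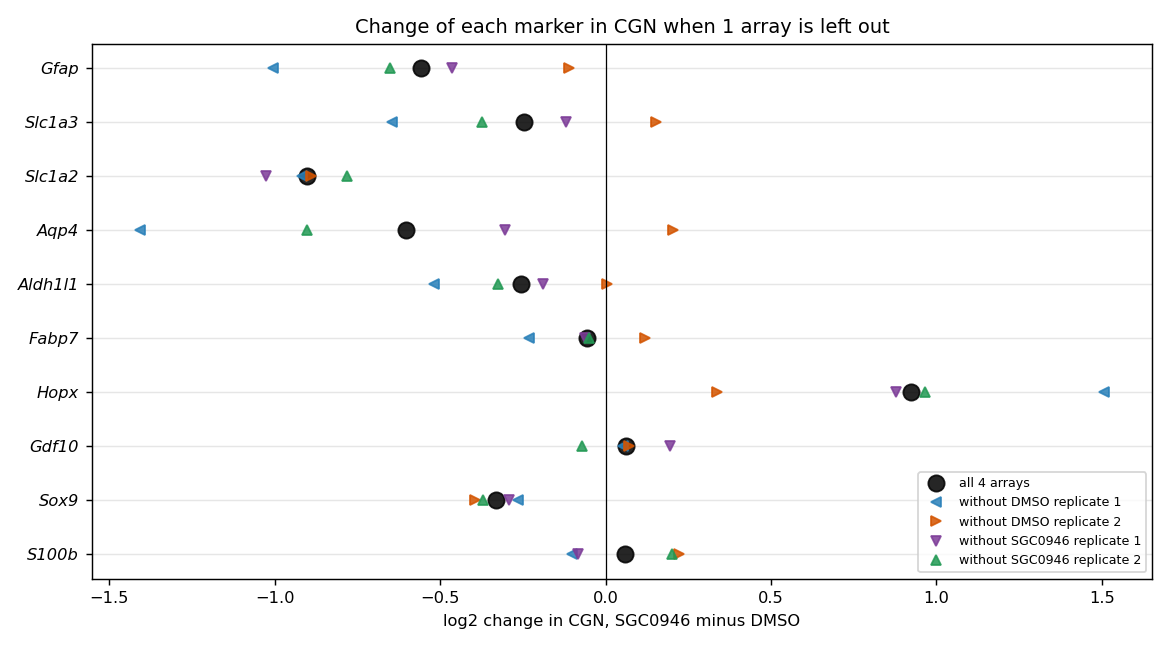
Log2 change of each marker (y axis: gene) in CGN, SGC0946 minus DMSO (x axis), from all 4 arrays and with each array left out. *Slc1a2* stays between -1.03 and -0.78, while *Aqp4* moves from -1.41 to 0.20 with the DMSO array left out.

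Other genes of astroglia had mostly lower means in CGN with SGC0946, 26 of 29, with a median log2 change of -0.25. This count was 14 without SGC0946 replicate 1, 17 without DMSO replicate 2, 25 without DMSO replicate 1 and 24 without SGC0946 replicate 2. At the unadjusted cut-off 3 were lower (10.3%, against the 4.08% of all genes) and 1 higher. The number lower was 0 without DMSO replicate 2, 1 without SGC0946 replicate 1, 10 without DMSO replicate 1 and 12 without SGC0946 replicate 2. *Ddah1*, an enzyme that degrades an inhibitor of nitric oxide synthases, read 7.36 and 7.45 with SGC0946 and 8.01 and 8.32 with DMSO (log2 change -0.76, standard error 0.25, adjusted p = 0.403). *Ttyh1*, of the tweety family of membrane proteins, differed by -0.63 (standard error 0.20) and *Mlc1*, a membrane protein of astrocyte end feet, by -0.64 (standard error 0.28), with overlapping groups for the latter. *Tnc*, the matrix glycoprotein tenascin C, went the other way with 0.83 (standard error 0.29). Its groups overlapped too, with 7.97 and 8.65 with SGC0946 and 6.90 and 8.07 with DMSO.

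Of 13 glial fate regulators 10 had lower means in CGN, and 3 stood at the unadjusted cut-off, all lower, against 4.08% of all genes. *Olig2*, a transcription factor of the oligodendrocyte lineage and of some astrocytes, read 7.50 and 7.94 with SGC0946 and 8.37 and 8.71 with DMSO (log2 change -0.82, standard error 0.20, adjusted p = 0.179). *Rfx4* (-0.75, standard error 0.34) and *Zbtb20* (-0.71, standard error 0.31), transcription factors of radial glia and astrocytes, were lower as well, with overlapping groups for *Rfx4*. The median log2 change of the 13 was -0.21. It was -0.03 without DMSO replicate 2, -0.15 without SGC0946 replicate 1, -0.22 without SGC0946 replicate 2 and -0.32 without DMSO replicate 1. Of 14 reactive genes 11 were lower, among them *Serpina3n* (-0.71, standard error 0.21, adjusted p = 0.316), but without DMSO replicate 2 the direction turned, with 9 higher and 5 lower.

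Markers of some other cells differed in the same CGN arrays. All 11 genes of the oligodendrocyte lineage had lower means with SGC0946 (median log2 change -0.44), while 48.7% of all genes had higher ones. The mean signal of these 11 was 6.46 to 6.49 against 6.81 to 6.96 with DMSO. All 12 genes of pericytes and meningeal fibroblasts were lower too (median -0.54, 6.35 to 6.85 against 6.93 to 7.28). Against 4.08% of all genes, 5 of these 12 stood lower at the unadjusted cut-off. Leaving out each array in turn kept 11 or 12 of them lower, but their median was -0.27 without SGC0946 replicate 1 and -0.30 without DMSO replicate 2, with 0 and 1 at the cut-off. In the oligodendrocyte lineage 9 of 11 were lower without SGC0946 replicate 2, 10 without DMSO replicate 1 and all 11 otherwise. Microglial genes were split evenly, 6 higher and 6 lower, as were those of endothelium, 5 higher and 5 lower. Of 9 genes of Purkinje cells 6 had higher means. Of 8 genes of GABAergic interneurons 5 were lower and 3 higher (median -0.44). Of 16 genes of granule neurons 10 were lower (median -0.19). The mean over the 10 markers of astroglia was 7.995 to 8.08 with SGC0946 and 8.07 to 8.39 with DMSO. The part of other cells, or of the labelled days in culture, in the lower *Slc1a2* was not tested.

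**Figure D4:**
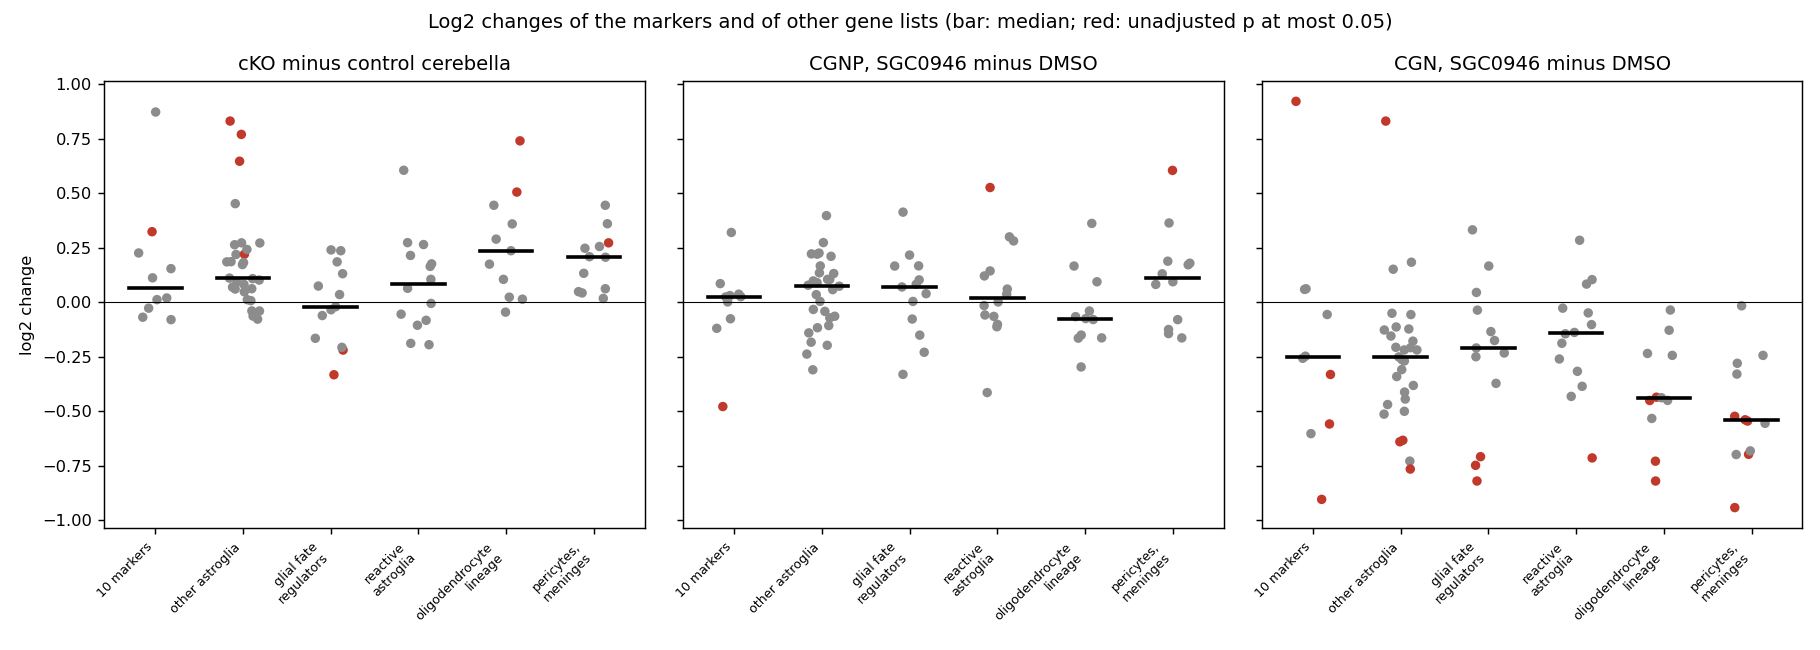
Log2 change (y axis) of every measured gene of 6 lists (x axis) in the 3 comparisons, with a bar at the list median and an unadjusted p of at most 0.05 in red. In CGN the medians of the markers and of the other astroglia genes both lie at -0.25, and those of the oligodendrocyte lineage and of pericytes and meninges at -0.44 and -0.54.

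Differences between the responses were tested for each member in 3 contrasts, 30 tests in all, of which 0 passed the adjusted test and 2 stood at the unadjusted cut-off. The adjusted test was passed by 0% of all genes for CGN against CGNP, by 0.0631% for cerebella against CGNP and by 0.185% for cerebella against CGN. At the unadjusted cut-off stood 5.46% of all genes for CGN against CGNP, 6.49% for cerebella against CGNP and 9.86% for cerebella against CGN, the contrast that held both members. The response of *Slc1a2* in CGN was -0.43 relative to that in CGNP (95% interval -0.97 to 0.12, adjusted p = 0.927), so that the lower signal after 44 h was not shown to be a larger response than that after 4 h. The change of *Slc1a2* in cerebella exceeded the response in CGN by 0.84 (standard error 0.25, adjusted p = 0.206) and that in CGNP by 0.41 (standard error 0.22, adjusted p = 0.807). For *Gfap* the change in cerebella exceeded the response in CGN by 1.43 (standard error 0.55, adjusted p = 0.371). The other members differed between cerebella and CGN by less than the test could resolve, for instance *Aqp4* by 0.76 with a 95% interval of -0.11 to 1.63.

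Levels across the groups followed no single order over all the markers, though most were higher in cerebella than in the cultures. *Slc1a2* averaged 8.03 ± 0.16 (SD, n = 3) in control and 7.97 ± 0.23 (SD, n = 3) in *Dot1l*-cKO cerebella, 7.38 ± 0.02 (SD, n = 2) in CGN with DMSO, 6.92 ± 0.07 (SD, n = 3) in CGNP with DMSO, 6.47 ± 0.17 (SD, n = 2) in CGN with SGC0946 and 6.44 ± 0.15 (SD, n = 3) in CGNP with SGC0946. Neither the genotypes nor the treated cultures of both kinds differed beyond their spread. *Gfap* averaged 10.25 in CGNP with either treatment and 10.22 in CGN with DMSO, above 9.66 in CGN with SGC0946, 9.24 in *Dot1l*-cKO mice against 8.37 in the controls. *Gdf10* averaged 10.97 and 10.64 in *Dot1l*-cKO and control cerebella, 7.50 and 7.41 in CGNP with SGC0946 and DMSO and 4.35 and 4.29 in CGN. Here the 3 kinds of sample did not overlap. *Fabp7*, *Slc1a3*, *Sox9*, *Aldh1l1* and *S100b* were likewise higher in every cerebellum than in any culture, and *Slc1a2* than in the 10 assigned cultures, whereas *Hopx* overlapped between the 3 kinds of sample. These levels come from arrays that appear to have been normalized apart, and the cerebella and cultures also differ in mouse strain and age.

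Between DMSO cultures, *Gdf10* was lower in CGN than in CGNP, with 4.28 and 4.30 against 7.34, 7.55 and 7.34. The signals differed by -3.12 on the log2 scale, and by -3.04 to -3.02 with arrays centred on their median or quantile normalized together. The CGN signals lay below the medians of their arrays (4.64 to 4.70) and no detection calls were made, so the size of this difference is not a measured fold. It was the single member at least 2-fold apart without overlap, which 13.9% of all genes were. *Slc1a3* was higher in CGN by 0.65 and *Slc1a2* by 0.46, without overlap. After joint quantile normalization *Slc1a3* was higher by 1.17 and joined *Gdf10* among the members past 2-fold, against 9.69% of all genes. *Sox9* was lower by 0.66, but by 0.13 after joint quantile normalization and then with overlap. *Aldh1l1* (-0.44 against 0.06) and *Gfap* (-0.03 against 0.53) changed sign with that normalization, which moved the median of all genes from -0.23 to -0.03. No test was made of levels between the experiments.

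**Figure D5:**
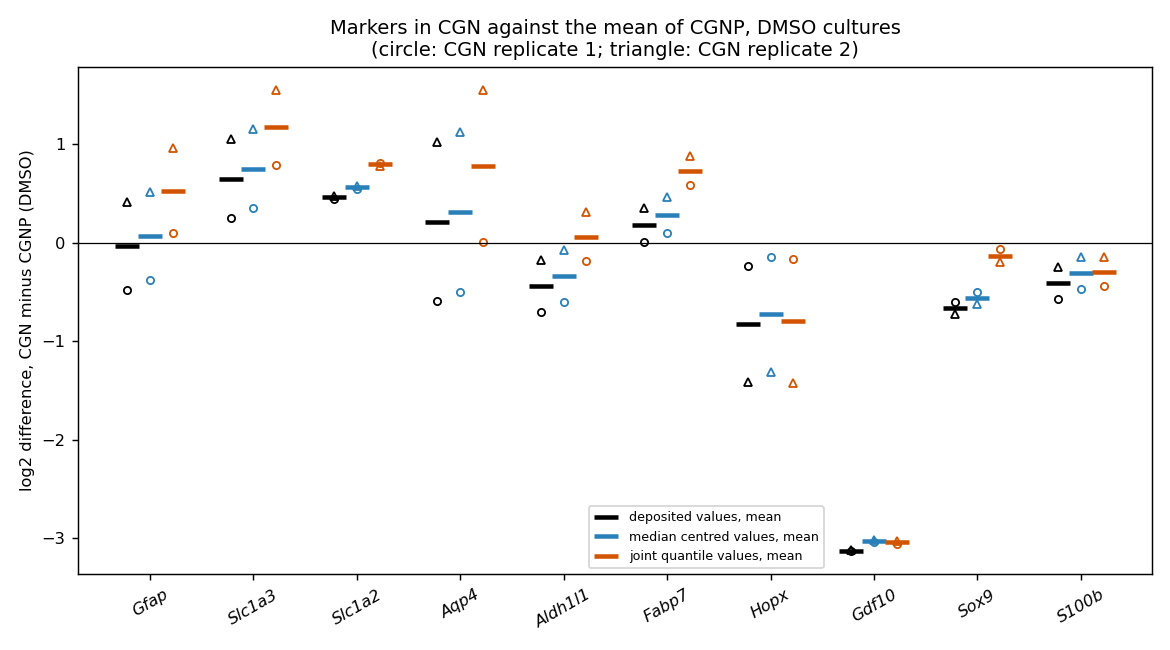
Log2 difference of each marker (x axis) between CGN and the mean of CGNP, both with DMSO (y axis), on deposited, median centred and jointly quantile normalized values; bars are means over both CGN arrays, circles and triangles the CGN arrays 1 and 2. *Gdf10* is near -3 on all 3 scales, and the sign of *Gfap* and *Aldh1l1* depends on the scale.

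How far the markers varied together between samples of a group differed between the experiments. Over the 16 arrays, with the group means removed, the correlation of 2 members had a median of 0.06 over 45 pairs, and 27 pairs were positive. The median was -0.17 within the 6 cerebella and 0.55 within the 6 CGNP arrays, where 36 pairs were positive. Pairs of other genes were not examined, and the 45 pairs come from only 10 genes. Whether these medians are particular to the markers, or differ between experiments beyond noise, was not tested. In CGNP the cultures of mouse 29 were high, with 9 of 10 members above the group mean with SGC0946 and 7 with DMSO, and the pooled culture with SGC0946 was low, with 1 of 10 above. The genes whose deviations were most like the mean of the members over 16 arrays were *Calcrl*, a peptide receptor (r = 0.951), *Ptgr2*, a prostaglandin reductase (r = 0.912), *Sh3pxd2b*, an adaptor protein (r = 0.902), *Ppp1r8*, a regulator of a protein phosphatase (r = 0.890), and *Prdm2*, a zinc finger protein (r = 0.882). Over the 12 arrays without CGN r was 0.934 for *Calcrl* and 0.810 for *Prdm2*. Of the members, each of which is part of that mean, *Fabp7* (r = 0.855) and *Aqp4* (r = 0.760) followed it most closely and *Hopx* (r = 0.03) and *Aldh1l1* (r = 0.07) least. This order changed over the 12 arrays without CGN, with *Fabp7* at 0.832, *Slc1a2* at 0.702, *Aqp4* at 0.646, *Hopx* at 0.465 and *Aldh1l1* at -0.37. Arrays of a mouse share their tissue source, and these correlations are a description.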

How the data were processed

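Of 18 arrays (Affymetrix Mouse Gene 2.0 ST) of cerebella and of cultures, each culture from a pair of pooled wells, 16 were compared. The deposited log2 values were summarized per cluster by the authors in Partek with RMA, after corrections for probe GC content and sequence, with quantiles equalized between arrays and probes combined by median polish. For the tool versions and the genome build of the array, the sources used here give nothing. The authors' own comparison tables (p-values and fold changes) were not used. Of 34472 clusters 23521 have 1 symbol, 1820 several and 9131 none in the platform annotation. The brightest single-symbol cluster stood for each of 22180 genes, and no member had several such clusters.

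Differences were tested in limma 3.58.1 under R 4.3.3, letting the variance depend on intensity. The 6 cerebella and the 10 assigned culture arrays were fitted separately, with Benjamini-Hochberg adjustment over all genes. Cerebella and cultures were contrasted in a fit of all 16. The culture fit pools its spread over 4 groups, since CGN had 2 arrays per treatment. The fits were also run on simulated arrays with independent noise. These hold neither the shared mice of the CGNP cultures nor shifts of whole gene lists, so they say nothing on either. The number of arrays limits the precision. CGNP cultures pair by source mice, as labelled, and deviations of paired cultures correlated at 0.00962 to 0.0350 across genes. Cerebella and CGN each carry a mouse number of their own in the labels, whereas the CGNP cultures of a treatment share their 2 mice, so p-values for CGNP rest on fewer animals than cultures.

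The members and lists were chosen with earlier results of these data known. Genes of a list were named if at the unadjusted cut-off (at most 4), or else the one with the largest difference. Alternatives were the scaling, a filter on dim genes, the mean of clusters, the variance model, the block and leaving out arrays.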

Additional observations from a re-analysis of the deposited data

Results flagged for a closer look

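The difference between the change in *Dot1l*-cKO cerebella and the response of CGN to SGC0946 stood at the unadjusted cut-off for 2 markers. For *Slc1a2* it was 0.84 on the log2 scale (unadjusted p = 0.00330, adjusted p = 0.206 in limma's fit of 16 arrays), from -0.07 in cerebella and -0.90 in CGN. With arrays quantile normalized together it was 0.80 (adjusted p = 0.239). For *Gfap* it was 1.43 (unadjusted p = 0.0175, adjusted p = 0.371), from 0.87 in cerebella and -0.56 in CGN, and 1.52 after joint quantile normalization. Both sides of the *Gfap* difference rest on single arrays: without control replicate 1 the change in cerebella was 0.26, and without DMSO replicate 2 the response in CGN was -0.11. Neither passed the adjusted test, 2 of 30 such tests stood at the unadjusted cut-off, and 9.86% of all genes did in this contrast.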

How the results depend on the processing

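Of 519 values of single members under an alternative, 437 kept their direction and their side of the unadjusted cut-off, 21 lost the cut-off, 13 reached it, and 48 changed sign without standing at it before or after. *Slc1a2* was lower with SGC0946 in every alternative run, by 0.43 to 0.56 in CGNP and by 0.78 to 1.03 in CGN on the log2 scale. In *Dot1l*-cKO cerebella the number of genes past the adjusted test was 5, and 8 without dim genes, 3 without the intensity trend, 0 with ordinary variance (1 member at the unadjusted cut-off became 0) and 30 in a fit of all 16 arrays. Without each mouse in turn it was 1 to 12, with 0 to 2 members at the unadjusted cut-off and a median change of 0.0675 to 0.16. That member, *Gdf10*, also missed the cut-off after median centring, with the mean of clusters and without the intensity trend (0 members each). In CGNP 7 genes passed, and 11 after joint quantile normalization or in the fit of 16 arrays, 13 without dim genes, 1 without the trend and 0 with ordinary variance or without the pooled cultures. The last also left 0 members at the unadjusted cut-off. Without single cultures 0 to 7 genes passed. In CGN 34 passed, and 52 after joint quantile normalization, 61 without dim genes, 66 in the fit of 16 arrays and 0 with ordinary variance, which left 2 members at the unadjusted cut-off. Without the trend 1 member, *Slc1a2*, passed. Without single CGN arrays 12 to 257 genes passed (257 without SGC0946 replicate 2), 1 to 6 members stood at the cut-off, and the median change was -0.39 to 0.10. The cause of these shifts was not tested.

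With the source mice as a replicate block in CGNP, 5 genes passed the adjusted test and *Slc1a2* had an unadjusted p of 0.0152; the block changed no call of a member. No paired analysis was possible in cerebella and CGN because their labels give no shared source. Leaving out each array for the lists was chosen after seeing the data.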

Other observations

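The 2 CGN arrays whose title and description name opposite treatments had these log2 signals for the markers. *Slc1a2* read 7.81 on one and 6.62 on the other, *Sox9* 8.43 and 7.97, *Gfap* 9.55 and 9.46 and *Hopx* 5.16 and 5.20. *Slc1a3* read 10.80 and 10.76, *Aqp4* 10.50 and 10.10, *Fabp7* 10.96 and 10.59 and *Aldh1l1* 7.80 and 7.71. *Gdf10* read 4.24 and 4.37 and *S100b* 5.66 and 5.73.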
